A study of Saccharomyces cerevisiae with 12 samples.

Results

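The difference that a mutant TATA-binding protein makes to yeast transcripts whatever the medium was measured as the mean of the mutant minus wild type difference in each of 2 media, each medium weighted equally. It rests on 11 of the 12 arrays of the study and was computed for 5449 genes of Saccharomyces cerevisiae. All cultures were BY4741, a haploid strain of the laboratory, of mating type a, whose usual genotype lacks working chromosomal copies of HIS3, LEU2, MET17 and URA3, and all carried a plasmid labelled p416-Tefmut2. In the mutant the plasmid held spt15-300, and in the wild type it held SPT15. The labels name no change to the chromosomal SPT15 of either strain, so both may have made wild type protein as well. The mutant (3 arrays) and the wild type (3 arrays) grew, without uracil, in 0% ethanol and 20 g/L glucose. The mutant (2 arrays, after leaving out 1 that its title calls an outlier) and the wild type (3 arrays) also grew with 5% ethanol and 60 g/L glucose. Because both components differ, the media are called the medium without and the medium with ethanol here. Cultures grew at 30 °C in closed tubes up to an optical density of about 0.4. The labels number the replicates of each group, and the p-values measure the spread between these arrays.

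The TATA-binding protein is the subunit of TFIID that binds the promoter and bends it, and it takes part in transcription by all of the nuclear RNA polymerases. It reaches promoters mainly through TFIID or through SAGA, a coactivator complex linked to stress-inducible genes with a TATA box. Mot1, an ATPase that strips the protein from DNA, and NC2, a dimer of Bur6 and Ncb2 that blocks its contact with TFIIA and TFIIB, restrain it and move it between promoters.

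Arrays of the same group correlated at 0.993 or higher over the yeast genes, and any pair of the 11 arrays at 0.943 or higher. The array medians ran from 10.46 to 10.52 on the log2 scale. A 3' to 5' difference, taken as the median over control genes of the log2 signal of the 3' minus the 5' probe set and read as a sign of RNA quality, was 0.240 to 0.266 in the mutant and 0.310 to 0.359 in the wild type without ethanol. With ethanol it was 0.379 to 0.400 in the mutant and 0.361 to 0.435 in the wild type, so there the strains overlapped. The control genes were ACT1, EAF5, RIP1, SPT15, SRB4, TDH1, URA3 and WBP1, and so included SPT15, which the plasmid carries, and URA3. The part of the 3' to 5' difference in the results was not tested beyond the fit with it as a covariate. That fit is given below where it moves a count by over 1.5-fold. The probe set of SPT15, which cannot tell the mutant from the wild type transcript, averaged a log2 difference of -0.03 (SE 0.0231, limma adjusted p = 0.363). Control probe sets along SPT15 differed by -0.021 at the 5' end, -0.009 in the middle and -0.137 at the 3' end. Of these only the 3' end passed an exact two-sided permutation test of arrays within media (p = 0.01 over 200 arrangements, 0.015 after adjustment over 6 probe sets). URA3, the gene selected for in medium without uracil, was 0.139 higher in the mutant at the 5' end, 0.154 in the middle and 0.143 at the 3' end (p = 0.005 each in the exact test, the smallest it can give, and 0.01 adjusted). LEU2, which the usual genotype of the strain lacks, read above background in every group. It lay at 7.98 to 8.23 in the mutant and 7.88 to 8.09 in the wild type without ethanol. With ethanol it was higher, at 10.16 to 10.26 in the mutant and 9.09 to 10.09 in the wild type. Its strain difference with ethanol was 0.56 (adjusted p = 0.129). HIS3 (11.23 to 11.88) and MET17 (7.49 to 8.04) also read above background on every array, with averages of -0.05 (adjusted p = 0.493) and -0.10 (adjusted p = 0.531). The readings of HIS3, LEU2 and MET17 go against the usual genotype if it leaves no transcript of these genes. The source of these signals was not tested. Arrays give no counting depth, so the number of arrays sets the precision.

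The average difference was small for most genes and went both ways. At a Benjamini-Hochberg adjusted p under 0.05 in limma, 1369 of 5449 genes (25.1%) were called, 612 higher (11.2%) and 757 lower (13.9%) in the mutant. Their median size was 0.168 on the log2 scale, a 1.12-fold difference, against a median of -0.018 over all genes. The average was at least 2-fold higher for 11 called genes and at least 2-fold lower for 0. A call is named shared here where, in addition, every mutant array lay on the same side of every wild type array in both media. Of all genes, 882 (16.2%) were shared calls, 383 higher (7.03%) and 499 lower (9.16%). Past 1.5-fold on average there were 33 shared calls higher in the mutant and 7 lower, so the large differences were mostly increases. Leaving out mutant replicate 3 (5% ethanol) cut the count of calls to 875. With the 3' to 5' difference of each array as a covariate it was 684, of which 409 were higher and 275 lower, 444 were shared calls, and 552 were also called without it.

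**Figure D1:**
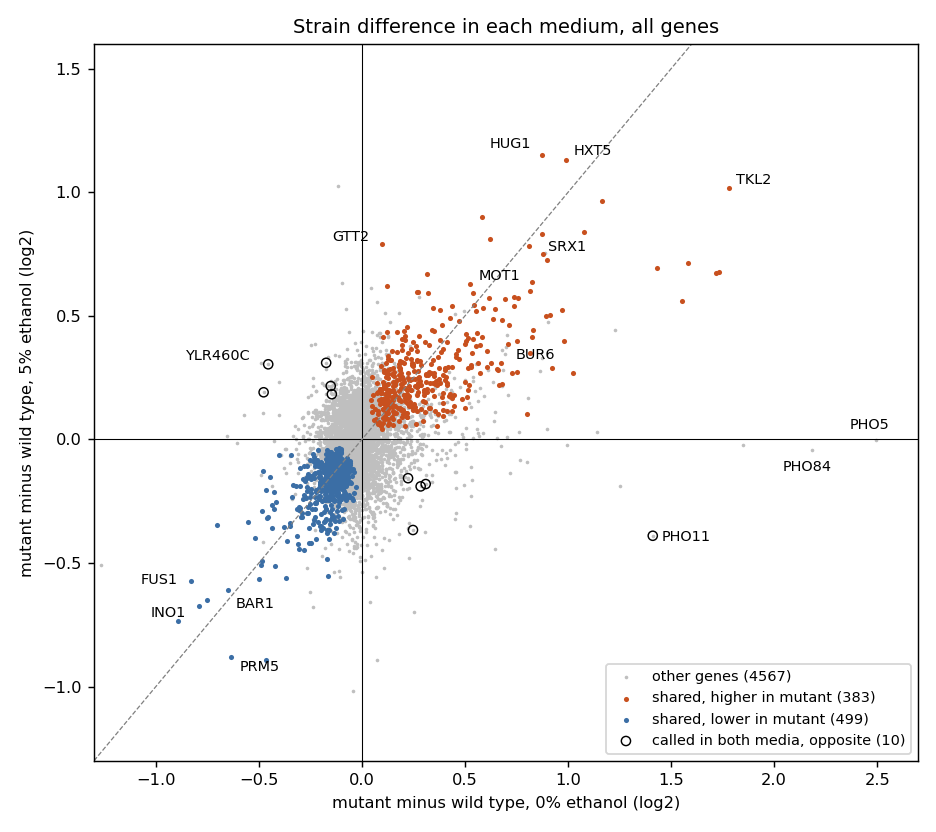
Each point is a gene, placed by the log2 difference of mutant minus wild type with 0% ethanol (x axis) and with 5% ethanol (y axis); the dashed line marks equal differences. Orange points are the 383 shared calls higher in the mutant, blue points the 499 lower, and open circles the 10 genes called in opposite directions in the media; PHO5 and PHO84 lie far to the right near 0 on the y axis.

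The strain difference in each medium uses its own arrays, so each can be read against the other. It was called for 890 genes without ethanol (16.3%) and for 638 with ethanol (11.7%). Of the 890 genes called without ethanol, 723 (81.2%) had the same sign with ethanol, and of the 638 called with ethanol, 555 (87.0%) had the same sign without it. Over all genes the signs matched for 62.5%. Across the 5449 genes, which are not independent replicates, the log2 differences in the media correlated at r = 0.440. Calls in the same direction in both media were made for 255 genes (4.68%), 154 higher and 101 lower. Of the 1369 genes called on average, 352 were called in neither medium alone. The strain difference itself differed between media for 66 genes (1.21%), and 18 of the shared calls were among them. Without mutant replicate 3 (5% ethanol) the calls in both media numbered 60 and the changes between media 23, and without wild type replicate 3 (5% ethanol) 353 and 448. Without any 1 of the other arrays they ranged from 128 to 207 and from 16 to 64. With the covariate they were 93 and 12.

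Genes that restrain the TATA-binding protein were among the shared increases. The members of the set were SPT15 with its regulators and TFIIA, the TFIID subunits, and the SAGA subunits. MOT1 read 11.10, 11.09 and 11.01 on the log2 scale in the mutant without ethanol, against 10.57, 10.54 and 10.51 in the wild type. With ethanol it read 10.98 and 10.73 in the mutant, against 10.30, 10.11 and 10.26 in the wild type. Every mutant array lay above every wild type array of its medium, and the mutant arrays with ethanol also lay above all wild type arrays without it. The averaged log2 difference of MOT1 was 0.58 (SE 0.0516, 1.49-fold, adjusted p = 8.62e-05). It was 0.53 without and 0.63 with ethanol, and the 95% interval of the change between media ran from -0.13 to 0.33.

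BUR6, which encodes a subunit of NC2, read 11.85, 11.90 and 11.82 in the mutant without ethanol, against 11.12, 11.15 and 11.17 in the wild type. Its level with ethanol was 12.08 and 11.96 in the mutant, against 11.57, 11.66 and 11.66 in the wild type. The strains did not overlap in either medium. The averaged log2 difference was 0.55 (SE 0.0334, 1.46-fold, adjusted p = 1.26e-05), with 0.71 without and 0.39 with ethanol. The partner subunit gene NCB2 rose less, by 0.15 on average (adjusted p = 0.00972). Its arrays read 11.64 and 11.50 in the mutant with ethanol, against 11.44, 11.50 and 11.47 in the wild type, so the strains touched there, and the call was lost with the covariate. BDF2, which encodes a bromodomain protein that associates with TFIID, read 11.60, 11.73 and 11.72 in the mutant without ethanol, against 11.25, 11.26 and 11.23 in the wild type. In medium with ethanol it stood at 11.68 and 11.77 in the mutant, against 11.24, 11.61 and 11.44 in the wild type. Its average was 0.36 (SE 0.0601, adjusted p = 0.00255). BDF1, the paralog of BDF2, rose by 0.13 (adjusted p = 0.0470), a call that was lost with the covariate.

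Calls among the subunits of the complexes were smaller in size than those of MOT1, BUR6 and BDF2. None of the 14 TFIID subunit genes measured was called on average by limma (1 higher and 4 lower at an unadjusted p under 0.05), with averages from -0.09 for TAF3 to 0.08 for TAF1. Of the 14 SAGA genes 2 were called higher, SGF11 (0.23) and SPT8 (0.10), and 3 lower, HFI1 (-0.12), UBP8 (-0.16) and SUS1 (-0.23). SGF11, UBP8 and SUS1 belong to the module that removes ubiquitin from histone H2B. TOA1, the large subunit of TFIIA, fell by 0.12 and BRF1, the TFIIB-like subunit of the polymerase III factor TFIIIB, by 0.13. In all, 7 of the 38 measured members were higher (18.4%, against 11.2% of all genes) and 5 lower (13.2%, against 13.9%), with a median of -0.01. The count of increases was 5 to 7 when any array was left out and 5 with the covariate, but not all of the same genes. With the covariate 1 TFIID gene, 1 SAGA gene and 3 genes among the regulators and TFIIA were called higher. Without it these counts were 0, 2 and 5. The 5 decreases were 0 without mutant replicate 3 (0% ethanol), 0 with the covariate, 2 without replicate 2 of the same group, and 3 without wild type replicate 1 or 2 (0% ethanol) or mutant replicate 3 (5% ethanol).

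**Figure D2:**
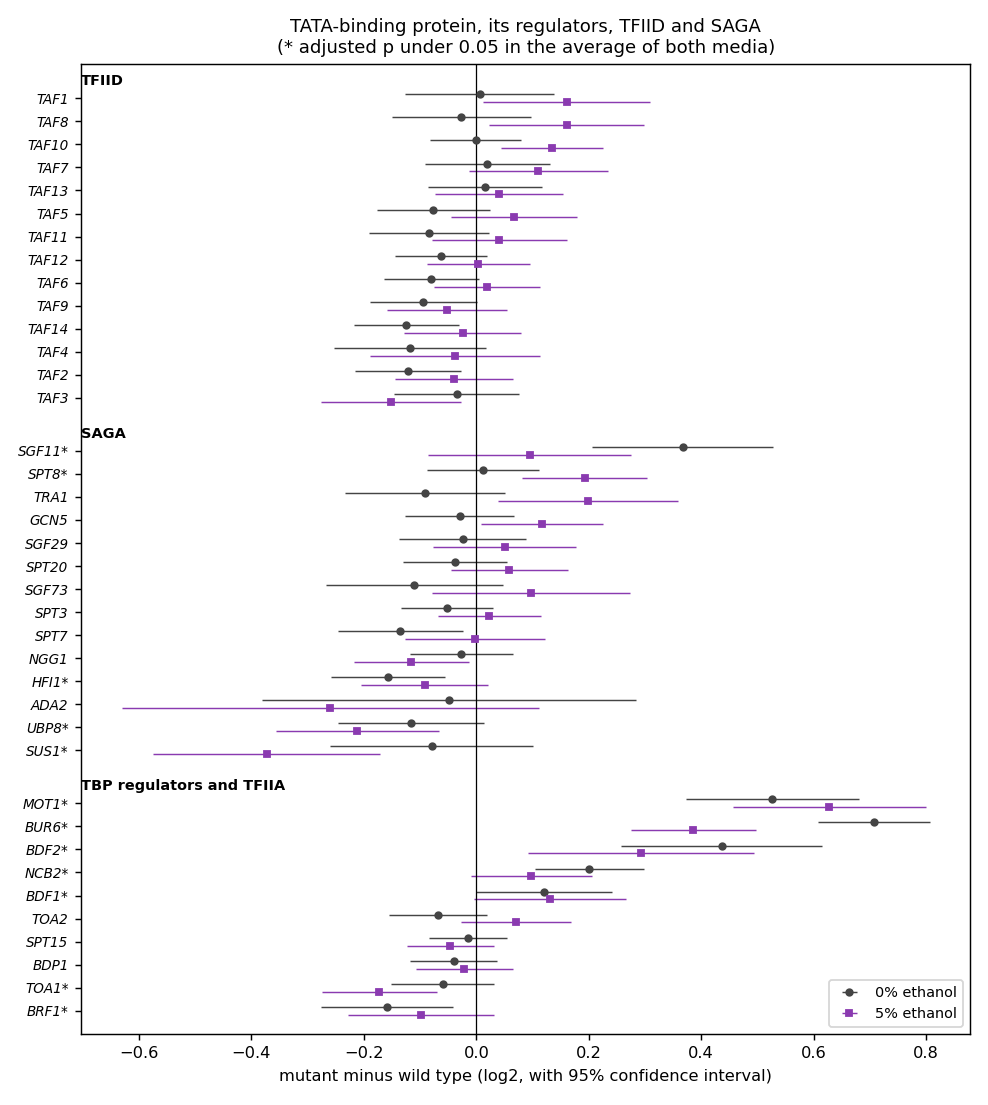
Log2 difference of mutant minus wild type for SPT15, its regulators, TFIID and SAGA, with 0% ethanol (circles) and 5% ethanol (squares), with 95% confidence intervals from limma; stars mark calls in the average of both media. MOT1, BUR6 and BDF2 lie to the right of 0 in both media, while the TFIID subunits lie around 0.

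The general transcription machinery leaned the other way by small amounts. Of 45 genes of RNA polymerase II, its general factors and Mediator, 11 were lower (24.4%, against 13.9% of all genes). Only 1 was higher (2.22%, against 11.2%), and the median was -0.06, against -0.018 over all genes. All 8 decreases among the 21 genes of polymerase and general factors were small, from -0.11 for TFB2, a subunit of the repair and kinase factor TFIIH, to -0.19 for RPB4, a polymerase stalk subunit. MED6, a subunit of the Mediator head, was the 1 increase, at 0.27 (SE 0.0359, adjusted p = 0.000737). With the covariate 1 of these decreases was called. The count was also 4 without wild type replicate 2 (0% ethanol) or mutant replicate 3 (5% ethanol), 5 without replicate 1 of that wild type or mutant replicate 3 (0% ethanol), and 7 without replicate 2 of that mutant.

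A part of the mating genes fell in the mutant in both media. Cells of mating type a secrete a-factor, sense the alpha-factor of the opposite type through the receptor Ste2 and a MAP kinase pathway, and induce genes for arrest, adhesion and fusion through the factor Ste12. The list held 41 measured genes, of which 18 were called lower (43.9%, against 13.9% of all genes) and 0 higher, and 16 of the 18 were shared calls. At an unadjusted p under 0.05 in limma 24 were lower and 2 higher. The median averaged log2 difference was -0.13 (-0.13 without and -0.12 with ethanol), against -0.018 over all genes. The count lay between 16 and 20 when any array was left out and was 13 with the covariate.

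BAR1, the gene of the secreted protease that degrades alpha-factor, had nearly the same difference in both media. It read 11.12, 10.98 and 10.93 in the mutant without ethanol, against 11.68, 11.75 and 11.57 in the wild type. With ethanol it read 9.81 and 9.78 in the mutant, against 10.43, 10.40 and 10.37 in the wild type. The average was -0.63 (SE 0.0432, 1.55-fold lower, adjusted p = 2.15e-05), and the interval of the change between media was -0.15 to 0.24. FUS1, whose product promotes fusion of mating partners, read 9.27, 9.07 and 9.04 in the mutant without ethanol, against 9.96 ± 0.042 in the wild type (mean and SD, n = 3). In the ethanol medium the mutant read 8.07 and 7.98, against 8.64 in the highest and 8.55 in the lowest wild type array. The strains were apart in both media, and the average was -0.70 (SE 0.0459, adjusted p = 1.76e-05). PRM5, a membrane protein gene induced by pheromone and cell wall stress, read 9.63, 9.44 and 9.39 in the mutant without ethanol, against 10.05, 10.12 and 10.19 in the wild type. With 5% ethanol the readings were 8.16 and 8.20 in the mutant, against 9.04, 9.20 and 8.95 in the wild type. It had the lowest average of the list at -0.76 (SE 0.0571, adjusted p = 3.31e-05).

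By role, the decreases were as follows. Of 7 genes for the pheromone, its export and the receptor, 6 were lower: the a-factor genes MFA1 (-0.35) and MFA2 (-0.17), the exporter STE6 (-0.23), the receptor STE2 (-0.31) and the processing genes RAM1 (-0.24) and STE24 (-0.15). STE2 lay at 12.88 to 12.93 in the mutant and 13.12 to 13.16 in the wild type without ethanol, and at 11.81 to 11.88 in the mutant and 12.20 to 12.34 in the wild type with ethanol. Among 14 signalling genes, the G protein subunits GPA1 (-0.21) and STE4 (-0.21), the desensitising factor SST2 (-0.29), the arrest factor FAR1 (-0.39) and BAR1 were lower. The kinase genes STE20 (-0.00), STE11 (-0.02), STE7 (0.02), KSS1 (0.02) and FUS3 (-0.14) were not called, and neither was STE12 (-0.11, adjusted p = 0.0843). Of 20 genes for adhesion, fusion and other targets, 7 were lower, including KAR4 (-0.49), a regulator of nuclear fusion genes, and the agglutinin subunit AGA2 (-0.34). AGA1, the anchor of the agglutinin, had -0.57 without and 0.10 with ethanol. Its average of -0.24 lost its call with the covariate (-0.07) and in 5 of the fits without 1 array, at values from -0.22 to -0.24. Those arrays were wild type replicate 1 and mutant replicates 2 and 3 (0% ethanol) and mutant replicates 1 and 3 (5% ethanol). The summed level of 7 markers of mating type a was 14.96 to 15.07 in the mutant and 15.25 to 15.31 in the wild type without ethanol, and 14.37 to 14.53 in the mutant and 14.72 to 14.84 in the wild type with ethanol. That of 4 markers of mating type alpha was 10.65 to 10.71 in the mutant and 10.58 to 10.83 in the wild type without ethanol. In the ethanol medium it was 10.77 to 10.96 in the mutant and 10.72 to 10.99 in the wild type, so the strains overlapped in both media. Among the alpha markers STE3, the a-factor receptor gene, was lower in the mutant with no overlap, at 7.90 to 8.07 in the mutant against 8.20 to 8.29 in the wild type without ethanol, and at 7.99 in both mutant arrays against 8.24 to 8.34 in the wild type with ethanol. Its average was -0.26 (adjusted p = 0.00109), in the direction of the a markers, while the strains overlapped in each medium for the other 3. All alpha markers read above background, the lowest group mean being 7.49 for MF(ALPHA)2 in the wild type without ethanol.

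**Figure D3:**
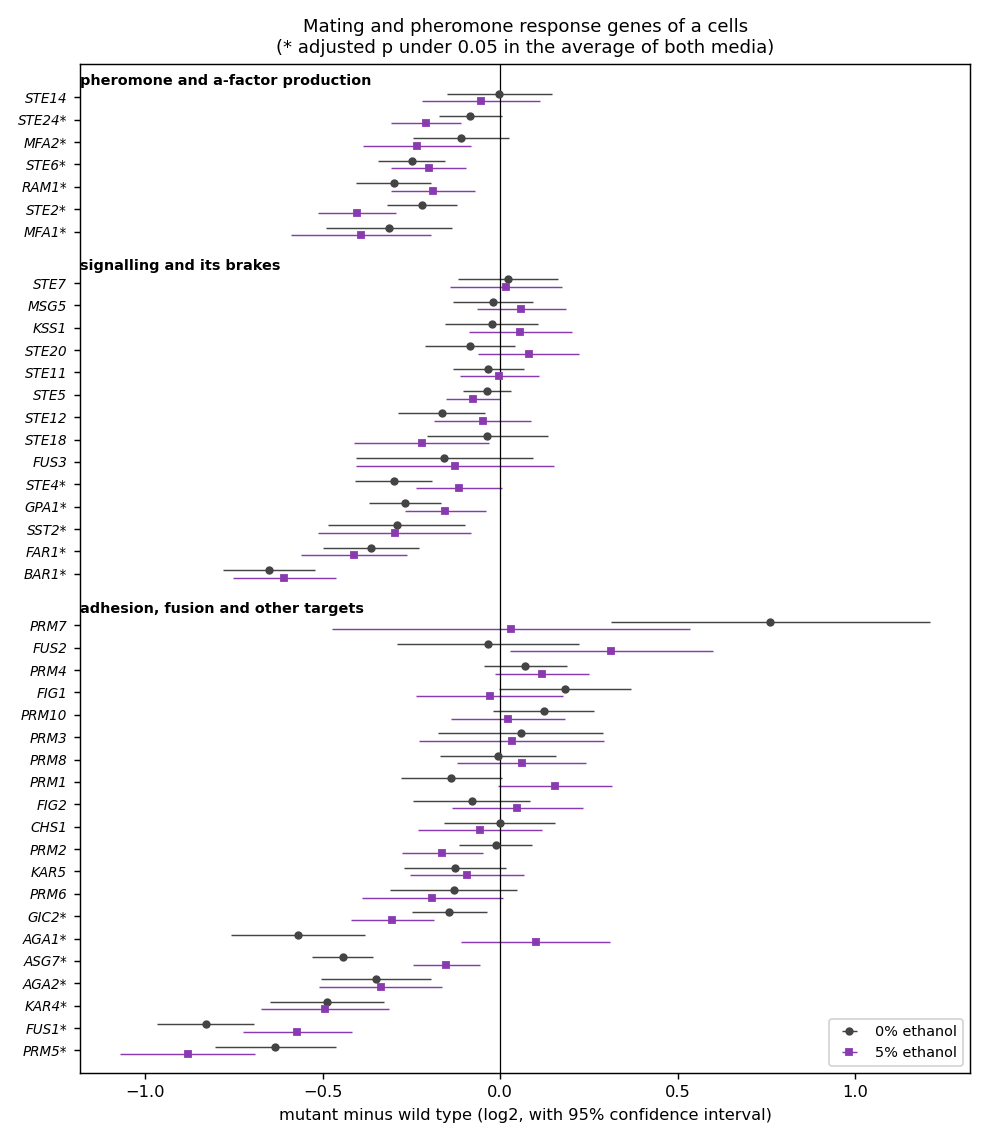
Log2 difference of mutant minus wild type for 41 mating genes with 0% ethanol (circles) and 5% ethanol (squares), with 95% confidence intervals from limma; stars mark calls in the average of both media. PRM5, FUS1, BAR1 and KAR4 lie well to the left of 0 in both media, and AGA1 in the medium without ethanol.

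INO1, the gene of inositol-3-phosphate synthase, was lower in the mutant in both media. It read 9.39, 9.78 and 9.67 in the mutant without ethanol, against 10.56, 10.58 and 10.07 in the wild type. Its level with ethanol was 10.75 and 10.73 in the mutant, against 11.41, 11.43 and 11.40 in the wild type. The strains did not overlap, and the average was -0.73 (SE 0.0995, 1.66-fold lower, adjusted p = 0.000894). The other phospholipid genes that answer to inositol had small differences. Of these 23 genes 6 were lower (26.1%, against 13.9% of all genes) and 2 higher (8.70%, against 11.2%). The called members among them ranged from -0.16 for EPT1, an ethanolamine phosphotransferase, to 0.19 for DGK1, the diacylglycerol kinase. The activator gene INO2 fell by 0.09. The 7 decreases, INO1 included, were 4 without wild type replicate 2 (0% ethanol) and 2 with the covariate.

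The other large shared decreases came from separate pathways. YBL005W-A, a Ty1 retrotransposon reading frame whose probe set is shared with near-identical copies, had the lowest average, -0.81 (adjusted p = 0.00225). It read 10.44, 9.87 and 10.02 in the mutant without ethanol, against 11.10, 11.09 and 10.81 in the wild type, and 9.39 and 8.81 in the mutant with ethanol, against 9.73, 9.98 and 9.78 in the wild type. PDH1, a 2-methylcitrate dehydratase of propionate breakdown, averaged -0.53 (SE 0.0557) and ENB1, a transporter of the siderophore enterobactin, -0.52 (SE 0.0460). BNA1, an enzyme of NAD synthesis from tryptophan, read 11.75, 11.72 and 11.70 in the mutant without ethanol, against 12.11, 12.13 and 12.18 in the wild type. With ethanol BNA1 read 11.74 and 11.64 in the mutant, against 12.24, 12.23 and 12.13 in the wild type. Within each strain the levels in the media overlapped while the strains stayed apart, and the average was -0.47 (SE 0.0315, adjusted p = 2.05e-05). BNA4, the monooxygenase that acts earlier in that pathway, was higher at 0.45 (adjusted p = 0.000103). MHT1, a methyltransferase that recycles S-methylmethionine, fell by 0.44. SSP1, needed for spore membrane growth, fell by 0.50, as did the uncharacterised YCL021W-A by 0.70 and YJL218W by 0.46. SRT1, a prenyltransferase of dolichol synthesis, fell by 0.46, and its call was lost with the covariate. IMD2, an inosine monophosphate dehydrogenase gene whose probe set is shared with near-identical copies, was also a shared call, but was not above background in either strain with ethanol, so its average is not given. Without ethanol it read 9.91, 10.05 and 10.01 in the mutant, against 10.46, 10.44 and 10.46 in the wild type, a difference of -0.46 (adjusted p = 0.00185).

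**Figure D4:**
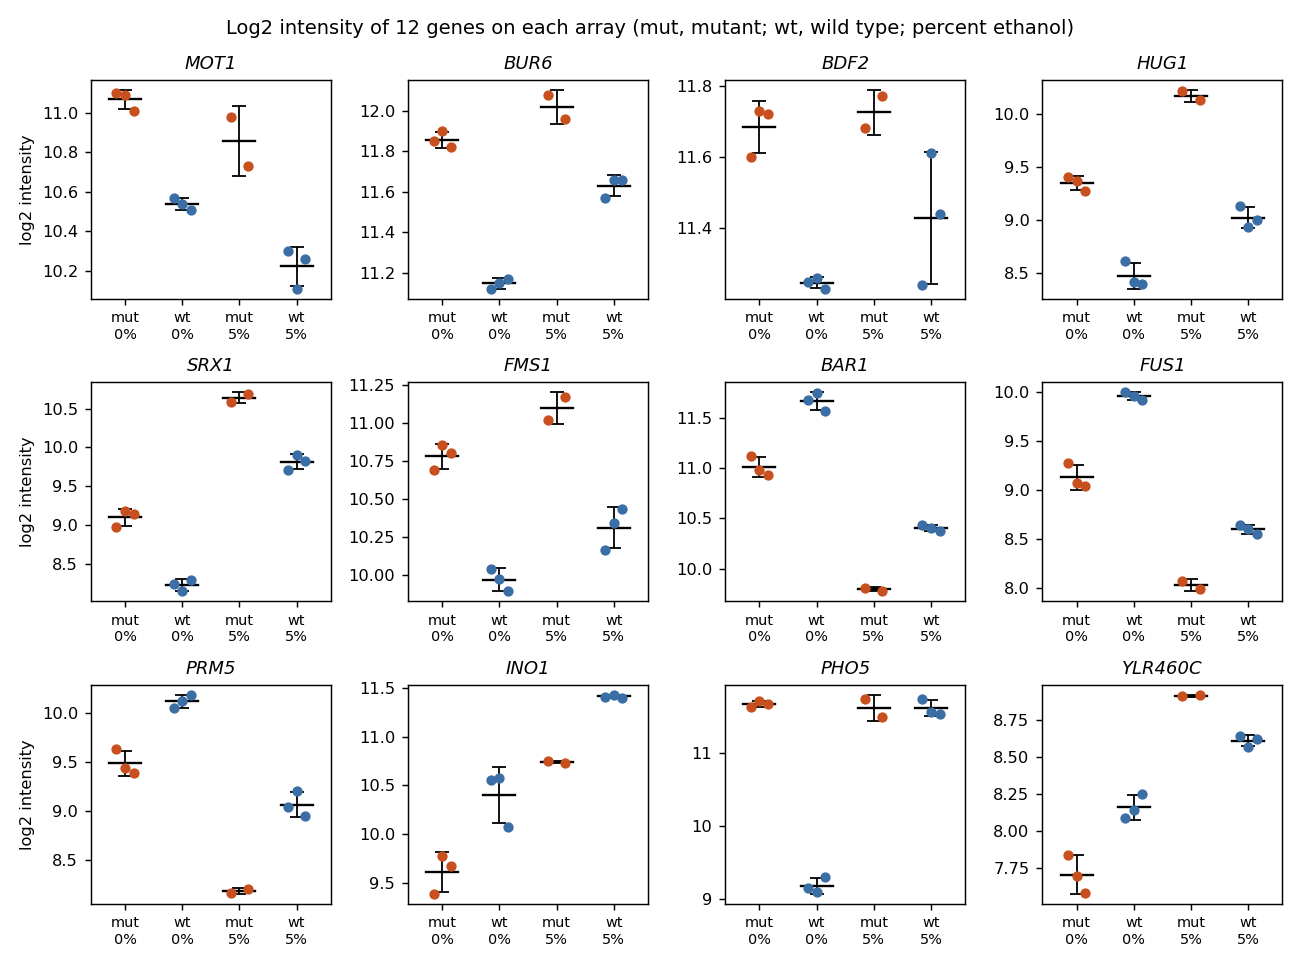
Log2 intensity of 12 genes on each of the 11 arrays; points are arrays, bars the group mean with the SD, orange the mutant and blue the wild type, with 0% and 5% ethanol. In all panels but PHO5 and YLR460C the mutant stays on the same side of the wild type in both media; PHO5 differs without ethanol, and YLR460C turns over between the media.

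The 10 highest shared calls were TKL2 (1.40), FMP16 (1.20), PHM8 (1.20), NQM1 (1.15), SGA1 (1.06), ALD3 (1.06), HXT5 (1.06), SIP18 (1.06), HUG1 (1.01) and GRE1 (0.96). TKL2, the minor transketolase of the pentose phosphate pathway, read 8.95, 9.33 and 9.33 in the mutant without ethanol, against 7.43, 7.41 and 7.43 in the wild type. With ethanol it read 9.98 and 10.16 in the mutant, against 8.63, 9.25 and 9.28 in the wild type. NQM1, a transaldolase of the same pathway, had 1.58 without and 0.71 with ethanol, and this change between media was called (adjusted p = 0.0239). HXT5, a hexose transporter, read 8.85, 9.26 and 9.24 in the mutant without ethanol, against 8.09, 8.15 and 8.13 in the wild type. In the ethanol medium it was at 10.29 and 10.46 in the mutant, against 8.94, 9.38 and 9.41 in the wild type. Its difference was as large with ethanol (1.13) as without (0.99). SGA1, a glucoamylase that breaks down glycogen, likewise had 1.16 without and 0.97 with ethanol. FMP16, ALD3 and SIP18 had 1.73, 1.43 and 1.55 without ethanol. With ethanol they had 0.68, 0.69 and 0.56 and were not called there alone (limma adjusted p = 0.0694, 0.119 and 0.153). All 10 genes kept their calls on average when any array was left out and with the covariate.

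The general stress response is induced by the factors Msn2 and Msn4. Of its 39 genes measured, 25 were higher on average (64.1%, against 11.2% of all genes) and 1 was lower, NCE103 (-0.15). The median log2 difference was 0.36, with 0.57 without and 0.21 with ethanol. The 3' to 5' difference moved with the strains in the medium without ethanol and overlapped with ethanol. With it as a covariate 8 of the 39 were called higher. The count was 18 to 26 when any array was left out. Of the 25, 14 were shared calls, among them ALD3, an aldehyde dehydrogenase, DDR2 (0.70), a gene of DNA damage and stress, XBP1 (0.66), a repressor of cyclin genes, and GND2 (0.59), a 6-phosphogluconate dehydrogenase. DDR2 read 12.53, 12.77 and 12.74 in the mutant without ethanol, against 11.84, 11.79 and 11.73 in the wild type, and 12.93 and 13.14 in the mutant with ethanol, against 12.25, 12.63 and 12.73 in the wild type. The chaperone gene HSP26 and the catalase gene CTT1 were called but not shared, with 0.90 and 0.87 without ethanol and 0.04 and 0.33 with it.

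Oxidative defence genes rose as well, with like medians in the media. Of 38 measured, 23 were higher (60.5%, against 11.2% of all genes) and 4 lower (10.5%, against 13.9%). The median was 0.14 (0.11 without and 0.14 with ethanol), and 13 increases were shared calls. SRX1, the sulfiredoxin that reactivates oxidised peroxiredoxins, read 8.98, 9.18 and 9.15 in the mutant without ethanol, against 8.25, 8.15 and 8.29 in the wild type. With 5% ethanol the readings were 10.59 and 10.69 in the mutant, against 9.71, 9.90 and 9.83 in the wild type. Its difference was 0.87 without and 0.83 with ethanol (average 0.85, SE 0.0502, 1.81-fold, adjusted p = 1.1e-05). The peroxiredoxin TSA2 (0.47), the glutathione peroxidases GPX1 (0.41) and GPX2 (0.30), the mitochondrial superoxide dismutase SOD2 (0.37) and the drug pump genes FLR1 (0.27) and ATR1 (0.26) were also shared increases. GTT2, a glutathione transferase, was one whose strain difference grew with ethanol: it had 0.10 without and 0.79 with ethanol (adjusted p of the change 0.00292). The glutathione synthase gene GSH2 (-0.20) and the thioredoxin gene TRX1 (-0.09) were lower. The 23 increases were 17 to 22 when any array was left out and 11 with the covariate. The 4 decreases were 1 with the covariate.

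Osmotic, storage carbohydrate and heat shock genes rose in smaller numbers, beside 11.2% of all genes called higher and 13.9% lower. Of 22 osmotic and glycerol genes 8 were higher (36.4%) and 0 lower, against 9 and 0 at an unadjusted p under 0.05 in limma. They included the hydrophilins SIP18 and GRE1, the glycerol phosphatase GPP2 (0.47), the glycerol phosphate dehydrogenase GPD1 (0.26) and the methylglyoxal reductase GRE2 (0.41). The count was 5 without mutant replicate 3 (5% ethanol) and 6 with the covariate. Of 20 trehalose and glycogen genes 7 were higher (35.0%) and PIG1 (-0.23), a putative targeting subunit of a phosphatase for glycogen synthase, was lower. The trehalase NTH1 (0.29) and the synthase TPS1 (0.20), which act in opposite directions, were both among the 7, and 3 were called with the covariate. IGD1, the inhibitor of the glycogen debranching enzyme, rose by 0.81 (SE 0.114). Of 28 heat shock proteins 11 were higher (39.3%) and MGE1 (-0.09) was lower. With the covariate 2 were called, and 6 without mutant replicate 3 (5% ethanol). HSP31 (0.47, adjusted p = 0.000166), a glyoxalase and chaperone, kept its call in both of these fits. Other high shared calls were HPF1 (0.81), a cell wall mannoprotein, FMS1 (0.80), a polyamine oxidase with 0.81 without and 0.78 with ethanol, and the water channel AQY1 (0.75).

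HUG1, a small inhibitor of ribonucleotide reductase that DNA damage induces, read 9.40, 9.37 and 9.27 in the mutant without ethanol, against 8.61, 8.41 and 8.39 in the wild type. In the ethanol medium it was at 10.21 and 10.13 in the mutant, against 8.93 to 9.13 in the wild type. The strains lay far apart in both media, and its average of 1.01 (SE 0.0532, 2.02-fold) had the adjusted p of 5.45e-06. The reductase subunit genes RNR1 (0.30) and RNR2 (0.19) were shared increases. Of the other 22 genes of the DNA damage list 2 were higher (9.09%) and 3 lower (13.6%), near the 11.2% and 13.9% of all genes. The decreases included the glycosylase gene MAG1 (-0.17) and the checkpoint kinase gene DUN1 (-0.12). MAG1 lost its call without mutant replicate 3 (5% ethanol). With the covariate 1 of the 3 decreases was called. The 5 increases of the whole list (20.0% of 25) were 3 without wild type replicate 2 (0% ethanol) or mutant replicate 3 (5% ethanol). Of 25 genes of the G1/S transition 8 were higher (32.0%) and 0 lower, with a median of 0.10, against 12 and 2 at an unadjusted p under 0.05. They included POL1 (0.30), a subunit of DNA polymerase alpha, NRM1 (0.26), a repressor of the MBF factor, the flap nuclease RAD27 (0.21) and the cyclin CLB6 (0.21). The count was 7 or 8 when any array was left out and 6 with the covariate. Of 25 G2/M and M/G1 genes 6 were higher (24.0%) and 3 lower, against 2 and 1 with the covariate. The CDK inhibitor SIC1 (0.28) and the bud site gene BUD9 (0.29) were higher, while FAR1 (-0.39) and TEC1 (-0.31), a factor of filamentous growth, were lower.

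Amino acid genes were called higher more often than all genes, and lower about as often. Of 49 genes under Gcn4, the activator of amino acid synthesis, 17 were higher (34.7%, against 11.2% of all genes). The 6 that were lower (12.2%) were near the 13.9% of all genes, and the median was 0.04. Of the 13 arginine and lysine genes 10 were higher and 1 lower, with a median of 0.23 (0.16 without and 0.22 with ethanol). Of the 13 histidine and aromatic genes 0 were higher (1 at an unadjusted p under 0.05) and 3 were lower, TRP4 (-0.16), HIS5 (-0.15) and TRP3 (-0.12). LYS1, the saccharopine dehydrogenase that makes lysine, read 11.29, 11.32 and 11.34 in the mutant without ethanol, against wild type values of 10.96 to 11.05. In the ethanol medium it was at 11.57 and 11.58 in the mutant, against 11.32, 11.29 and 11.32 in the wild type. The spread within groups was small beside this difference, and the average was 0.29 (SE 0.0253, adjusted p = 8.05e-05). LYS20, a homocitrate synthase, rose by 0.29 and LYS4, the homoaconitase, by 0.39. The glycine cleavage genes GCV1 (0.65) and GCV2 (0.62) had the highest averages of the list, and GCV1 had 1.03 without and 0.27 with ethanol. The count of increases was 11 without wild type replicate 2 (0% ethanol) and 17 with the covariate, but not all of the same genes. With the covariate 10 arginine and lysine genes, 2 histidine and aromatic genes and 5 of the remaining genes were called higher. Without it these counts were 10, 0 and 7. The 6 decreases were 3 without mutant replicate 3 (5% ethanol) and 1 with the covariate, which left 0 of those among histidine and aromatic genes.

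Of 29 genes under nitrogen catabolite repression 12 were higher (41.4%, against 11.2% of all genes) and 3 lower (10.3%, against 13.9%). The ammonium permease MEP3 (0.47), the urea permease DUR3 (0.40) and DAL3 of allantoin breakdown (0.56) were shared increases, while the activator GLN3 (-0.17) and the glutamine synthetase GLN1 (-0.09) were lower. The 12 were 7 without mutant replicate 3 (5% ethanol) and 4 with the covariate, which left 0 of the 3 decreases. Among 38 cell wall genes 7 were higher (18.4%, against 11.2% of all genes). Examples were YPS3 (0.44), an aspartic protease, PIR3 (0.43), a wall protein, and GSC2 (0.31), a glucan synthase. The mannoprotein gene TIP1 was lower (-0.21), and 3 of the 7 were called with the covariate. PEX11 (0.38), a factor of peroxisome division, and FAA2 (0.30), an acyl-CoA synthetase, rose in the peroxisome list. There 4 of 20 genes were higher (20.0%, against 11.2% of all genes). Among 8 acetaldehyde and acetate genes 4 were higher (50.0%, against 11.2% of all genes). These were ALD3, the hydrolase ACH1 (0.36) and the acetyl-CoA synthetases ACS2 (0.17) and ACS1 (0.14).

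**Figure D5:**
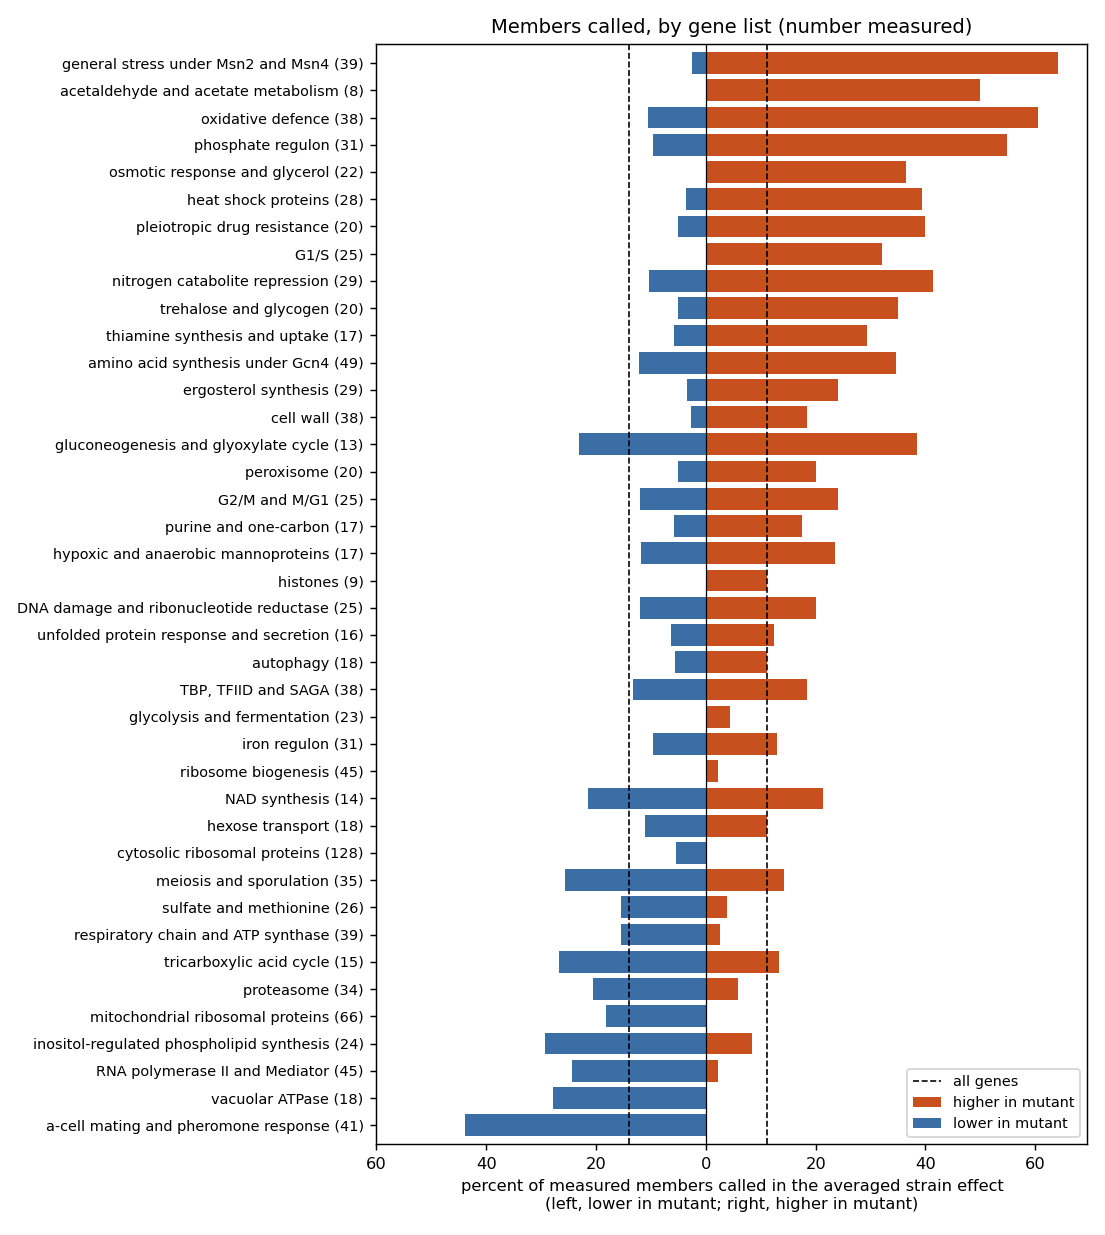
Percent of the measured members called, for each gene list with at least 8 of them measured, in the averaged strain effect, with those higher in the mutant to the right and those lower to the left; the number measured follows each name, and dashed lines mark the 11.2% and 13.9% of all genes. Of these lists, general stress and oxidative defence genes reach furthest to the right and mating genes furthest to the left.

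Genes of glycolysis, ribosome biogenesis and the cytosolic ribosome were called less often than all genes. Of 23 glycolysis and fermentation genes 1 was higher (4.35%) and 0 lower, and of 45 ribosome biogenesis genes 1 (2.22%) and 0. At an unadjusted p under 0.05 in limma 3 of each list were higher and 0 lower. With the covariate 12 of the ribosome biogenesis genes were called higher. Of 128 cytosolic ribosomal protein genes 0 were higher and 7 lower (5.47%), with a median of -0.03. RPS9A, a protein of the small subunit, was the clearest at -0.24 (SE 0.0292, adjusted p = 0.000494). Of 66 mitochondrial ribosomal protein genes 12 were lower (18.2%, above the 13.9% of all genes) and 0 higher. Their median was -0.06 (-0.00 without and -0.13 with ethanol). Without wild type replicate 3 (5% ethanol) these decreases numbered 14 and 25, and without mutant replicate 3 (5% ethanol) 2 and 2. The cytosolic count was 2 or 3 without any of 7 other arrays. The mitochondrial count was 5 without wild type replicate 1 (0% ethanol) and 6 and 4 without replicates 2 and 3 of the mutant there. With the covariate the counts were 2 and 1. Of 18 genes of the vacuolar ATPase 5 were lower (27.8%) and 0 higher, and the count was 2 or 3 without 7 of the arrays in turn and 2 with the covariate. At an unadjusted p under 0.05 0 genes of the ATPase or of either ribosomal list were higher. Larger shares than in glycolysis were called among other genes of central metabolism, though not all of them lay above the share of all genes. Of 13 gluconeogenesis and glyoxylate cycle genes 5 were higher (38.5%, against 11.2% of all genes) and 3 lower (23.1%, against 13.9%). Those decreases numbered 0 to 2 when any array was left out and 1 with the covariate. Of 15 tricarboxylic acid cycle genes 2 were higher (13.3%, near the 11.2% of all genes) and 4 lower (26.7%, against 13.9%). With the covariate these counts were 0 and 1.

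For some groups the average hid a difference between media. Of 39 respiratory chain and ATP synthase genes 6 were lower on average (15.4%, near the 13.9% of all genes). Only 1 was higher (2.56%, against 11.2%), and 0 of the 39 genes were shared calls. Their median was 0.07 without and -0.13 with ethanol, and the change between media was called for 6 of them. QCR2, a core subunit of complex III, had 0.26 without and -0.05 with ethanol. RIP1, the iron-sulphur subunit of the same complex, had 0.04 and -0.29. The 6 decreases were 12 without wild type replicate 3 (5% ethanol) 2 or 3 without any of 9 other arrays, and 1 with the covariate, where the 1 increase was 0.

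The phosphate regulon, which Pho4 induces when phosphate runs low, was the other such group. On average 17 of 31 genes were higher (54.8%) and 3 lower, with a median of 0.24. That median was 0.26 without and 0.01 with ethanol, and the change between media was called for 13 of the 31. With the covariate 17 were higher and 0 lower. PHO5, the secreted acid phosphatase, read 11.63, 11.71 and 11.67 in the mutant without ethanol, against 9.14, 9.09 and 9.30 in the wild type. With ethanol it read 11.75 and 11.49 in the mutant, against 11.75, 11.57 and 11.54 in the wild type, and the strains overlapped. Its average of 1.25 thus came from the medium without ethanol, where the difference was 2.49. PHO84, the high-affinity phosphate transporter, had 2.18 without and -0.04 with ethanol, and PHM6 had 1.85 and -0.02. A part of the list held in both media: PHM8, a phosphatase, had 1.72 without and 0.67 with ethanol, PHM7 had 0.69 and 0.57, and PHO4 itself 0.26 and 0.22.

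Calls in opposite directions in the media were made for 10 genes (0.184%), 5 each way, and 8 of them were not called on average. PHO11, an acid phosphatase gene whose probe set is shared with near-identical copies, was higher in the mutant by 1.41 without and lower with ethanol (-0.39). YLR460C, a gene of unknown function, read 7.84, 7.70 and 7.58 in the mutant without ethanol, against 8.09, 8.14 and 8.25 in the wild type. In medium with ethanol it stood at 8.91 and 8.92 in the mutant, against 8.64, 8.57 and 8.62 in the wild type. The strains were apart in both media with the sign turned, and the average was -0.08 (adjusted p = 0.281). YCR102C, also of unknown function, had -0.48 without and 0.19 with ethanol, and QDR2, a drug and cation exporter, had -0.17 and 0.31. YIL014C-A had 0.28 and -0.19. YGR126W had 0.25 and -0.37, and read above background only in the mutant without ethanol. The 10 genes were 0 without mutant replicate 3 (5% ethanol) and 26 without wild type replicate 3 (5% ethanol), 6 or fewer without any of 8 other arrays, and 3 with the covariate.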

How the data were processed

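The submitters measured total RNA, labelled with biotin, on 12 Affymetrix Yeast Genome 2.0 arrays. The values deposited for each array are linear intensities of 10928 probe sets. They were made with RMA, per the submitters' processing notes, a method that removes background, forces the arrays onto 1 distribution and combines the probes of a set. The version and settings of RMA are not stated in the sources used here. Log2 was taken here with no pseudocount.

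Names of probe sets came from the annotation of the platform, and 12 symbols were updated through RefSeq's table of genes (assembly R64). Of 5498 probe sets for single genes, those with the highest mean were kept for 47 genes with several, which left 5449 genes, 118 of them on probe sets shared with near-identical sequences. The 1746 Schizosaccharomyces pombe probe sets served as background: a gene read above it in a group if any array there exceeded its 95th percentile of them (log2 7.24 on average), and 139 genes did so in no group.

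Groups were taken from the titles. Limma 3.58.1 in R 4.3.3 (lmFit, eBayes; 1 mean per group; 7 residual and 2.73 prior degrees of freedom) gave the average, both strain differences and their change between media, with Benjamini-Hochberg adjustment over all genes and a threshold of 0.05. The script was tested on simulated data with known changes. Described genes are the 15 highest and 15 lowest shared calls, the 5 highest and 5 lowest averages whose change between media was called, the 3 largest opposite calls each way, up to 4 members with the smallest p of each of 29 lists, SPT15 and the auxotrophy genes. Further list members are named to account for a count or to show both directions, after their values were seen. The members, the 41 gene lists and the rules were chosen with earlier results of these data known. Lists were described by counts and medians, with no test. Alternatives were all 12 arrays with and without array weights, a replicate block, aligned medians, a repeated quantile normalization, no genes of the lowest 25%, limma's trend and robust options, an additive model, the 3' to 5' difference as a covariate, the mean of a gene's probe sets, and each array left out. Promoter sequences were not analysed here.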

Additional observations from a re-analysis of the deposited data

Results flagged for a closer look

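The strain difference changed between media (limma adjusted p under 0.05 for the change) for 29 of the genes named. The values below are the strain difference with ethanol minus that without, on the log2 scale. The 6 largest were of phosphate genes, PHO5 -2.50, PHO84 -2.22, PHM6 -1.87, PHO11 -1.80, VTC3 -1.11 and PHM8 -1.04. Other genes more in favour of the mutant without ethanol were NQM1 -0.87, HSP26 -0.85, GCV1 -0.75, YGR126W -0.61, YIL014C-A -0.47, BNA4 -0.45, MTH1 -0.40, GPP2 -0.38, RIP1 -0.33, QCR2 -0.31, SPS4 -0.31 and COX4 -0.25. Genes more in favour of the mutant with ethanol were YLR460C 0.76, GTT2 0.69, AGA1 0.67, YCR102C 0.67, QDR2 0.48, POR2 0.42, YGL039W 0.35, YNL040W 0.34, TIP1 0.34, SRB2 0.32 and ASG7 0.29.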

How the results depend on the processing

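Of 135 named genes called on average, 119 kept call and direction when each array was left out in turn, 105 with the 3' to 5' difference as a covariate, and 16 with all 12 arrays at equal weights, which adds the array titled an outlier. Of the 30 largest shared calls, 30, 29 and 11 kept theirs in these settings. With all 12 arrays the median of all genes moved to -0.146, and 23 genes were called, 17 of them shared, with 0 called the same way in both media, 0 called in opposite directions and 3 changed between media. With array weights as well the calls were 1733, with 510 shared, 30 opposite and 486 changed between media. With the covariate they were 684 (59.8% higher, against 44.7%), with 444 shared, 93 in both media, 3 opposite and 12 changed between media. Leaving out each array gave 875 to 1722 calls, 746 to 1035 shared, 60 to 353 in both media, 0 to 26 opposite and 16 to 448 changed between media. Counts within the gene lists fell to between 0 and 5 with all 12 arrays. Same-numbered arrays deviated together at r from -0.247 to 0.709, so the numbers were not taken as pairs. Every negative r involved the wild type without ethanol, and the pairs among the other groups had 0.257 to 0.709. With the replicate block the counts were 1484 called, 861 shared, 4 opposite and 46 changed between media. Aligned medians gave 1260 calls (52.0% higher). Averages that changed sign with all 12 arrays were YIL014C-A -0.067, NCB2 -0.065, MED6 -0.057, YDJ1 -0.025, RGT2 0.0074, QCR2 -0.071, ISU1 -0.036, PNC1 -0.049, MTD1 -0.053, URA3 -0.071 and MET17 0.41, and with the covariate YLR460C 0.00293, HIS3 0.077 and LEU2 -0.066. The cause of these changes was not tested. The average with ethanol rests on 2 mutant arrays, and genes near background have compressed differences.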

Other observations

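Differences varied with gene length. Among the 1089 longest genes, of at least 2109 bases, the median average was 0.016 (-0.047 without and 0.077 with ethanol), and among the 1097 shortest it was -0.040 (-0.007 and -0.067). Of the longest genes 8.26% were called higher and 6.43% lower, and of the shortest 11.2% and 16.1%. Chromosome medians lay between -0.025 and -0.004 over 16 chromosomes. Of 31 iron regulon genes 4 were higher (12.9%) and 3 lower (9.68%), against 11.2% and 13.9% of all genes. Of 20 pleiotropic drug resistance genes 8 were higher (40.0%) and 1 lower (5.00%), and the 8 were 4 to 9 when 1 array was left out. Of 35 meiosis and sporulation genes 5 were higher (14.3%) and 9 lower (25.7%). The 9 were 5 without replicate 1 of the mutant with ethanol. Called genes included SMK1 (0.44), a kinase of spore wall assembly, and the chitin deacetylase gene CDA1, with -0.36 with ethanol. Without ethanol CDA1 was not above background in the mutant, and it was at least 1.09-fold lower there, with the mutant set at the background level of each array (measured means 6.93 in the mutant and 7.36 in the wild type). With the covariate the counts were 1 and 3 for the iron regulon, 3 and 0 for drug resistance and 4 and 4 for meiosis. Of 34 proteasome genes 2 were higher (5.88%) and 7 lower (20.6%), and 0 and 2 with the covariate.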
